A study of Mus musculus with 3 samples.

Results

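The leptin receptor and its signalling chain were taken as 6 genes, namely the receptor gene Lepr, its neighbour Leprot, the hormone gene Lep, the kinase gene Jak2, the transcription factor gene Stat3 and the inhibitor gene Socs3. All 6 were measured, out of 18865 genes with at least 4 probesets on the array. A probeset is a small set of probes for 1 stretch of a transcript, and 119 probesets were annotated to exactly 1 of the 6 genes, 33 to Lepr, 6 to Leprot, 5 to Lep, 31 to Jak2, 35 to Stat3 and 9 to Socs3. The annotation gave the current symbol for each of them. The RNA came from GFP-positive cells of C57BL/6 bone marrow, freshly isolated and sorted by flow cytometry, in which the nestin gene promoter drives GFP. The 3 arrays form 1 group with no second group beside it, so each gene was set against a background on the same array. Whether separate mice or separate sorts were behind the 3 samples is not stated, so the p-values reflect array-to-array spread that could be purely technical.

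Leptin is a hormone of fat cells that reports energy stores, and its receptor belongs to the class I cytokine receptors, which have no enzyme activity of their own. The long form of the receptor binds JAK2, which phosphorylates the receptor tail, so that STAT3 docks there and turns on target genes that include Socs3, whose product then blocks the receptor. Short forms share the outer part and differ in the tail. In bone marrow Lepr is known as a marker of perivascular stromal cells, which make CXCL12 and the Kit ligand for blood stem cells.

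Each array's threshold was set at the 95th percentile over 349 olfactory, vomeronasal and bitter taste receptor genes, which marrow cells should lack. It stood at 5.40, 5.63 and 5.58 on arrays 1, 2 and 3 on the log2 scale of the deposited values. Of these 349 genes, 10 were called above it. So were 3 of 29 genes of liver, photoreceptors and spermatids, namely Apoa2 (7.25), Prm2 (7.21) and Prm1 (6.57). A call at values like these is therefore weak evidence of expression. Perivascular stromal markers were called in 9 of 10 cases, where 51.7% of all genes were. Nes itself, whose promoter drives the reporter, was not called (5.97, 5.21 and 5.56 on arrays 1, 2 and 3, limma, adjusted p = 0.67). Pan-leukocyte markers were called in 2 of 10 cases, endothelial markers in 7 of 10, neutrophil and macrophage markers in 5 of 9 and erythroid markers in 1 of 6. The hemoglobin gene Hbb-b1 (9.79 ± 1.27) and the neutrophil gene S100a8 (9.81 ± 0.44, SD, n = 3 each) were the highest of the last 2 lists. Endothelial markers were lowest on array 2 for 10 of 10 measured genes, with list medians of 7.93, 5.96 and 8.0 on arrays 1, 2 and 3. A lower value on an array can come from fewer cells of a type or from less RNA per cell, and these cannot be told apart in sorted bulk samples.

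Of the 6 genes, 5 lay above background, where 51.7% of all genes did (limma, one-sided, Benjamini-Hochberg adjustment over 18865 genes). These were Lepr, Leprot, Jak2, Stat3 and Socs3, while Lep was not called. Against a stricter threshold, the 95th percentile of 29 liver, photoreceptor and spermatid genes, 4 of the 6 were called, where 16.2% of all genes were. This threshold stood at 7.26, 7.11 and 6.79 on arrays 1, 2 and 3. With 29 genes it rests on the few highest of them, and the p-values treat it as fixed. Socs3 was the member called only against the chemosensory threshold. At the level of single probesets, 81 of the 119 passed, where 21.2% of all 318760 probesets with exactly 1 symbol did. The probeset threshold was higher than the gene threshold, at 6.95, 7.17 and 6.96 on arrays 1, 2 and 3.

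**Figure D1:**
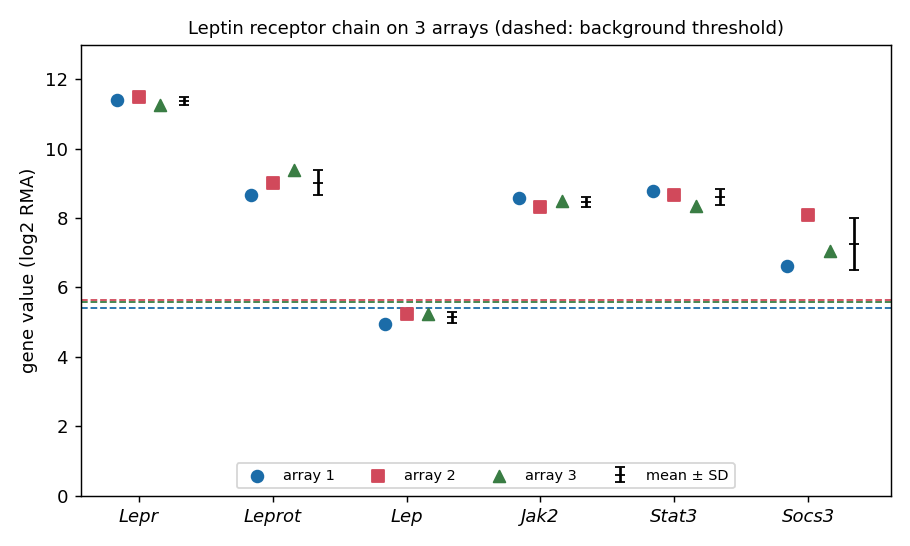
Value of each of the 6 genes (log2 RMA, median over its probesets) on arrays 1, 2 and 3, with the mean and SD over the 3 arrays in black and the background threshold of each array as a dashed line of the same colour. Lepr sits between 11.27 and 11.50 on the 3 arrays, Lep lies under the threshold on each of them, and Socs3 has the widest spread of the 6 genes.

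Lepr gave a signal far above background that was nearly the same on the 3 arrays. Its gene values were 11.39, 11.50 and 11.27 for arrays 1, 2 and 3. The arrays differed by no more than 0.23 on the log2 scale, whereas the median range of a gene was 0.51. The mean was 11.38 ± 0.12 (SD, n = 3), which lay 5.85 ± 0.17 (SE) above the threshold (limma, adjusted p = 1.96e-06). The SD of Lepr was larger than that of 14.96% of all genes. Array 2, on which the endothelial markers were lowest, had the highest Lepr value of the 3, and without that array the margin of Lepr was 5.84.

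All 33 Lepr probesets passed the probeset threshold, where 21.2% of all 318760 tested probesets did. All 33 lay above it on each of the 3 arrays. Higher thresholds left fewer of the 33 called. The count was 23 against the 99th percentile of the background and 25 against the background of liver, photoreceptor and spermatid genes. Means of the 33 over the arrays ran from 8.0 to 12.97, with a median of 11.42 and quartiles of 9.55 and 11.97. Probes differ in affinity, so values of different probesets are not compared as amounts of RNA. The middle 50% of the Lepr probesets spanned 2.42, and among all called genes the median of that span was 1.99.

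The 3 highest Lepr probesets were 5140509, 5555082 and 5420535. Probeset 5140509 had 12.99, 12.99 and 12.92 on arrays 1, 2 and 3, probeset 5555082 had 12.98, 12.99 and 12.79, and probeset 5420535 had 12.76, 12.83 and 12.68. These 3 were thus close to the top of the scale on every array, where the highest value of any probeset was 13.74. The 3 lowest Lepr probesets were 5205658, with 8.07, 8.37 and 8.51, 4634425, with 8.34, 8.31 and 7.81, and 4614362, with 7.65, 8.43 and 7.93 on arrays 1, 2 and 3. Even 4614362 was above the probeset threshold on each array (margin 0.98, limma, adjusted p = 0.0226). The calls of 4634425 and 4614362 were lost when any 1 of the 3 arrays was left out, and that of 5205658 without array 3 (limma, adjusted p = 0.0599). The remaining 30 probesets kept their call without any 1 array.

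The 21 highest Lepr probesets had means of at least 10.87 and the other 12 fell between 8.0 and 10.40. The array's annotation table does not tie a probeset to an exon or to a long or short form. A low or a high probeset therefore cannot be assigned to a receptor form here. The order of the probesets was much the same on each array, as the plot of Lepr probesets by array shows. No Lepr probeset had a range above 2 over the arrays, and the widest was 1.25, for probeset 4562370 with 8.82, 9.71 and 8.46.

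**Figure D2:**
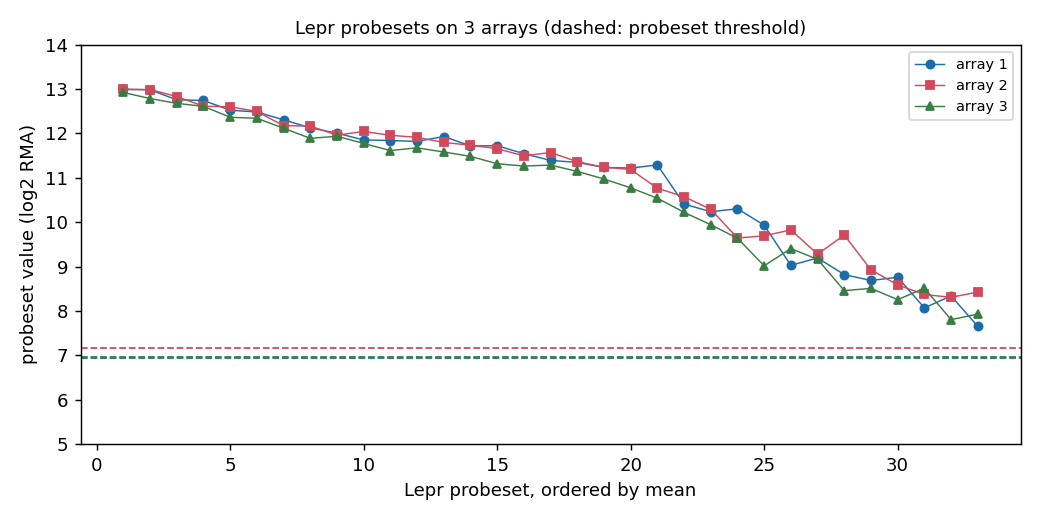
Value (log2 RMA) of the 33 Lepr probesets on each array, ordered from the highest to the lowest mean, with the probeset threshold of each array as a dashed line. The 3 curves run close together from about 13 down to about 8, stay above the thresholds throughout, and array 3 is the lowest for 30 of the 33 probesets.

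Most Lepr probesets were lowest on array 3, by small differences. Array 3 gave the lowest value for 30 of 33 probesets and array 1 for the other 3 (4578947, 5205658 and 4614362), while the highest value was split between array 2 with 19, array 1 with 13 and array 3 with 1. Probesets of 1 gene share the same RNA and labelling, so they are not replicates of this difference. The median range of a Lepr probeset over the 3 arrays was 0.28. The corresponding median was 0.78 for Jak2 and 0.92 for Stat3, and it was 0.84 over the 5426 genes with at least 20 probesets. High signals vary less on this scale, and the 22 of these genes with a mean of at least 11 had a median of 0.30, close to that of Lepr. In a comparison chosen after the values were seen, 3 of the 5426 genes had every probeset called. These were Lepr with 33 of 33, the RNA helicase gene Ddx3x with 26 of 26 and the chaperone gene Hsp90b1 with 22 of 22.

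RefSeq lists 2 start regions for mouse Lepr, and the window of the second begins 499 bases downstream of the first. Both are printed from 250 bases before to 50 bases after the start, with the window of Leprot, which lies directly upstream of Lepr on the same strand. They are shown because Leprot and Lepr are neighbours that were both called, and in humans the corresponding genes share a promoter, whereas in the mouse table they start in separate windows. The sequences are credited to RefSeq, build GRCm38.p6, are written 5′ to 3′, and carry the GC box GGGCGG, searched on both strands, in capitals.
Lepr, first start, chr4:101717157-101717456, plus strand: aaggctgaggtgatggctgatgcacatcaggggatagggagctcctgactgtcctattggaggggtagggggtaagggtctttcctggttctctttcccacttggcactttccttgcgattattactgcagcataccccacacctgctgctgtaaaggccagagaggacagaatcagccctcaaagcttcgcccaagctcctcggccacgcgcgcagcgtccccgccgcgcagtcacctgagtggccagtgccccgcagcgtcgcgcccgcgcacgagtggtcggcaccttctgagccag
Lepr, second start, chr4:101717656-101717955, plus strand: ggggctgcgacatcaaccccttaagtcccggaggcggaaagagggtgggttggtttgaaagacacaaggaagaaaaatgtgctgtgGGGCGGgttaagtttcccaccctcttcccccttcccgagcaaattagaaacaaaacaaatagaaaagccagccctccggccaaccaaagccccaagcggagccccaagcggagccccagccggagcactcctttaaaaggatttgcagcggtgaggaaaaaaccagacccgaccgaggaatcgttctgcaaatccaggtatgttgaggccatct
Leprot, chr4:101647533-101647832, plus strand: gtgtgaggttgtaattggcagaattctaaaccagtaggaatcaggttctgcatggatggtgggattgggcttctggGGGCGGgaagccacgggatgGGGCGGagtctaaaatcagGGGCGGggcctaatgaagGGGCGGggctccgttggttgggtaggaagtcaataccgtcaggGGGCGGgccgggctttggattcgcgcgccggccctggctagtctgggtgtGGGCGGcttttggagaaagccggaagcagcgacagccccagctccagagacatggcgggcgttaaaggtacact
The window of Leprot held 6 matches of GGGCGG, the second Lepr window held 1 and the first held 0. Of 32851 RefSeq promoter windows of the same length, 35.7% held at least 1 match. A match is a description of the letters and shows no binding.

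Leprot encodes endospanin 1, a small membrane protein of endosomes that limits how much leptin receptor reaches the cell surface. It had 8.65, 9.01 and 9.37 on arrays 1, 2 and 3 with array 3 highest and array 1 lowest. The mean of 9.01 ± 0.36 (SD, n = 3) lay 3.48 ± 0.18 (SE) above the threshold (limma, adjusted p = 5.60e-06). All 6 Leprot probesets passed the probeset threshold, where 21.2% of all probesets with exactly 1 symbol did. Their means ran from 8.18 to 11.25, and the lowest, 5522986, had a margin of 1.15. The highest of them, 5195570, was flat with 11.31, 11.17 and 11.28, whereas 4790342 had 11.01, 9.28 and 10.09. The range of these medians over the arrays was 0.72, above the 0.51 of the median gene, and the SD was larger than that of 66.36% of all genes. When probesets were averaged instead, the values were 9.32, 9.33 and 9.51 and the range was 0.19, so the 2 summaries differ in how far the arrays lay apart. Neutrophil and macrophage markers were likewise highest on array 3, with median deviations of -0.26, -0.17 and 0.43 from their own means, and 5 of 9 of them were called. The endothelial, pan-leukocyte and erythroid lists were highest on that array too, at 0.81, 0.22 and 0.18. The perivascular stromal and adipocyte lists were not, at -0.14 and -0.03. The part of any of these lists in the Leprot value was not tested. Leprotl1, the related gene with a similar role in receptor traffic, had 8.74, 9.56 and 9.62 and was called as well.

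Lep, the gene of the ligand, was not above background. Its gene value was 4.96, 5.23 and 5.23 on arrays 1, 2 and 3, below the threshold of each array. The mean was 5.14 ± 0.16 (SD, n = 3), with a margin of -0.40 to the threshold (limma, adjusted p = 1.0). A missing call is no evidence that cells lacked the transcript. A single one of the 5 Lep probesets, 5413911, stood apart with 9.38, 10.11 and 9.58 and passed the probeset threshold (limma, adjusted p = 0.00116). The other 4 had means between 2.76 and 5.42. Without probeset 5413911, a choice made after the values were seen, the gene value was 3.98, 4.08 and 4.08 on the 3 arrays. Adipocyte markers, which would accompany Lep in fat cells, were called in 5 of 10 cases, near the share among all genes. Their list medians were 6.06, 5.90 and 6.03, and no marker was listed at 0. Adiponectin (Adipoq), which stood at 11.60 ± 0.12, was flat over the arrays. Fabp4, a fatty acid binding protein gene of fat cells that capillary endothelium also expresses, was called against both thresholds and had the widest range of the list, 3.69, with 9.05, 6.17 and 9.86. It was lowest on array 2, as the endothelial markers were, and their part in its values was not tested. The lipid droplet gene Plin1 stood at 6.33 ± 0.19 and the brown fat gene Ucp1 at 4.56 ± 0.18 (SD, n = 3 each).

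**Figure D3:**
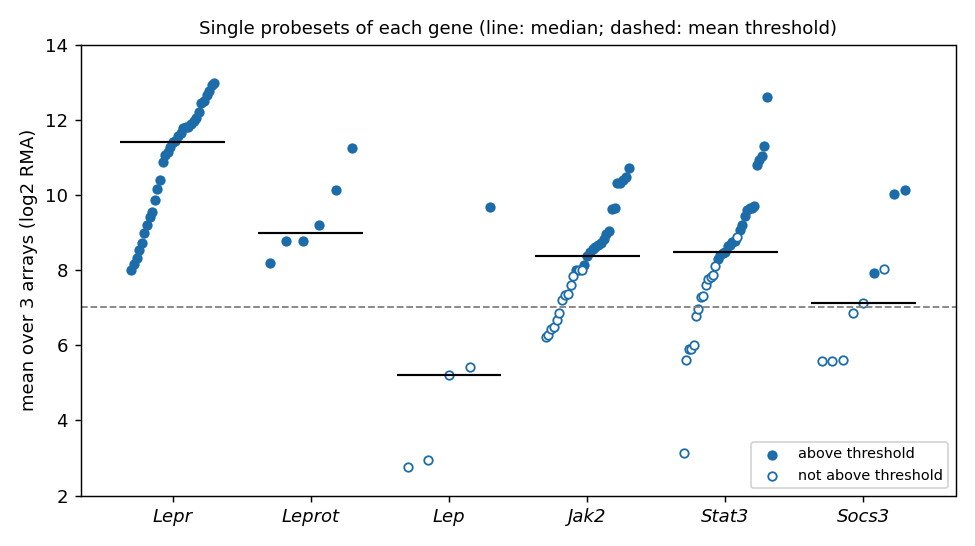
Mean over the 3 arrays (log2 RMA) of each probeset of the 6 genes, filled where it passed the probeset threshold and open where it did not, with the median of each gene as a black line and the mean threshold of 7.03 as a dashed line. All 33 Lepr and all 6 Leprot probesets are filled, while 1 of 5 is filled for Lep and 3 of 9 for Socs3.

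Jak2, the tyrosine kinase bound to the receptor tail, was above background, with little spread between the arrays by the median of its probesets. Its values were 8.59, 8.31 and 8.49 for the arrays 1, 2 and 3, with the mean at 8.46 ± 0.14 (SD, n = 3). The margin over the threshold was 2.93 ± 0.18 (SE, limma, adjusted p = 9.55e-06). Of its 31 probesets, 18 were called and 13 were not, where 21.2% of all probesets were called. Means of the 31 lay between 6.23 and 10.72. The 3 highest, 5553169, 4975530 and 5616931, had means of 10.72, 10.48 and 10.40. Array 2 gave the lowest value for 19 of the 31 probesets, and the mean over probesets was 8.53, 7.97 and 8.47. The range of these means was 0.56, against 0.28 for the medians, so the 2 summaries differ in spread. Endothelial markers were lowest on that array too, with median deviations of 0.41, -1.35 and 0.81, and their part in the Jak2 values was not tested. Without array 2 the margin of Jak2 was 3.05.

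The other Janus kinases were called in 3 of 3 cases, where 51.7% of all genes were. Jak1, which serves the gp130 receptors, had 10.13, 8.93 and 9.85 on arrays 1, 2 and 3, and was the only 1 of the 3 above the stricter threshold. Its low value was on the same array as that of the endothelial markers. Jak3, which pairs with the common gamma chain of lymphoid cytokine receptors, stood at 6.63 ± 0.12. Tyk2 stood at 6.14 ± 0.16 (SD, n = 3 each), and its call was lost without array 3 (limma, adjusted p = 0.0597).

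Stat3, the transcription factor that docks on the activated receptor, was above background on every array. It had 8.80, 8.66 and 8.35 on arrays 1, 2 and 3, highest on array 1 and lowest on array 3. The mean was 8.60 ± 0.23 (SD, n = 3) and the margin 3.07 ± 0.19 (SE, limma, adjusted p = 9.66e-06). Its 35 probesets had the widest span of the 6 genes, with means from 3.14 to 12.61. Of the 35, 20 were called, where 21.2% of all probesets were. Probeset 5182064 had 12.53, 12.78 and 12.52, while probeset 4481594 had 3.48, 2.75 and 3.19. For 5 Stat3 probesets the range over the arrays was above 2, the widest being 5522241 with 9.79, 6.71 and 6.99. These probesets were singled out after their values were seen.

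Among 5 other STAT genes that were measured, 4 were called and 3 passed the stricter threshold, against 51.7% and 16.2% of all genes. Stat5a and Stat5b, which growth hormone and prolactin receptors use, stood at 8.55 ± 0.37 and 8.53 ± 0.16 (SD, n = 3 each). Stat2, of the interferon response, had 7.82 ± 0.34 and Stat6, of the interleukin-4 response, 7.45 ± 0.16. Stat4, which acts in T and NK cells, was not called, with 3.84, 3.82 and 4.04 on arrays 1, 2 and 3.

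Socs3, the feedback inhibitor that STAT3 induces, was called but varied between the arrays. Its values were 6.62, 8.09 and 7.04 for arrays 1, 2 and 3, so array 2 was highest and array 1 lowest. The mean of 7.25 ± 0.76 (SD, n = 3) lay 1.72 ± 0.26 (SE) above the threshold (limma, adjusted p = 0.000662). The SD was larger than that of 94.41% of all genes. The call was lost against the 99th percentile of the background (limma, adjusted p = 0.113) and against the stricter threshold (adjusted p = 1.0).

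The order of the arrays for Socs3 depended on the probesets and on how they were summarised. Probeset 5271476 had 6.62, 9.35 and 8.11 and probeset 4584825 had 5.62, 8.74 and 7.04 on arrays 1, 2 and 3. Both were lowest on array 1, whereas the other 7 were lowest on array 3. The 2 highest probesets, 5210624 and 4365695, had 10.43, 10.09 and 9.86 and 10.46, 9.97 and 9.61, with array 1 highest in each. Without the 2 variable probesets, a choice made after the values were seen, the gene value was 6.93, 6.97 and 6.68. The range over the arrays was then 0.28, against 1.47 with all 9 probesets, and Socs3 was still called (margin 1.33, limma, adjusted p = 0.000309). Averaging all 9 probesets gave 7.29, 7.86 and 7.15, a range of 0.71. Averaging the 7 gave 7.62, 7.52 and 7.02, a range of 0.60, so most of the range of the means remained without the 2 probesets, which had been picked for their range. By these 2 means and by the median of the 7 probesets, array 3 was lowest.

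The RefSeq promoter window of Socs3 held a match to the STAT-type palindrome TTCNNNGAA, printed here in capitals because Socs3 is the STAT3 target of the chain.
Socs3, chr11:117969317-117969616, minus strand: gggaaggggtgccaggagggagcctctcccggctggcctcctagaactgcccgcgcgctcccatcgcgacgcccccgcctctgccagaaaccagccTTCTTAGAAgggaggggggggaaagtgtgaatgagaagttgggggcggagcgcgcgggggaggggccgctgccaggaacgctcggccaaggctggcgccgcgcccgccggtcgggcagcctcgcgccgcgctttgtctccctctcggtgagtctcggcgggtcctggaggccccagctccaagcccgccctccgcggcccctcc
The match begins at position -154 from the start and reads TTCTTAGAA. Windows with this motif made up 8.30% of the 32851, and none of the windows of the other 5 genes held it. A total of 10 motifs were searched on both strands in the 7 windows of the 6 genes, chosen with the sequences in view. Besides TTCNNNGAA and the GC box they were the STAT palindrome with 1 more base between its arms, the TATA box TATAAA and the E-box CANNTG. The CCAAT box, the cAMP element TGACGTCA and the pattern TTGCNNCAA, which is not a palindrome, were searched too. The remaining motifs were the core of the EBF motif CCCNNGGG and the full EBF palindrome, which contains that core. Windows without a match show only that these letters are not there.

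The other SOCS family genes, which also damp cytokine receptors, were called in 5 of 7 cases, against 51.7% of all genes. By limma 0 of them passed the stricter threshold, against 16.2% of all genes, and 1, Socs5, had an unadjusted p below 0.05. Socs5 had the largest margin, with 7.79, 7.62 and 7.19 on arrays 1, 2 and 3. Socs1 stood at 7.13 ± 0.17, Socs4 at 7.16 ± 0.17 and Socs6 at 6.85 ± 0.10 (SD, n = 3 each). Socs7 stood at 6.25 ± 0.43 and lost its call without array 1 (limma, adjusted p = 0.0799). Socs2, which restrains growth hormone signals, had 5.86, 5.84 and 5.38 and was not called. Cish had 4.73, 5.06 and 5.77 and was not called either.

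Across the 10 lists of further pathway genes, 66 of 88 measured genes were above background and 28 passed the stricter threshold. Among all genes 51.7% were called and 16.2% passed the stricter threshold. Many of the pathway genes are expressed in most cell types. Their median value was 6.94, against 6.07 over all genes. Among them 8 lost their call when 1 of the arrays was left out and 0 gained it. The 8 were Bbs1, Bbs2, Epor, Pim1, Ptpn6, Socs7, Timp1 and Tyk2.

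**Figure D4:**
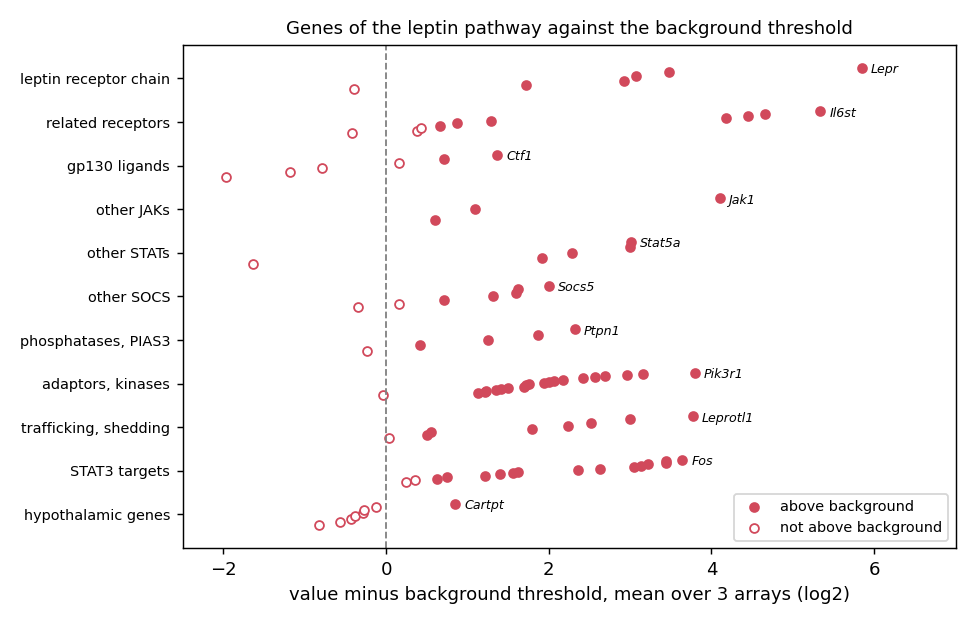
Margin of each measured gene over the background threshold (log2, mean over the 3 arrays), by list, filled where the gene was called and open where it was not, with the gene of the largest margin named in each list. Lepr has a margin of 5.85 and Il6st of 5.34, while 7 of the 8 hypothalamic genes and 4 of the 6 gp130 ligands are not called.

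Receptors related to Lepr were called in 7 of 10 cases, against 51.7% of all genes. Of the 10, 4 also passed the stricter threshold, against 16.2% of all genes. Il6st, which encodes gp130, the shared chain of the interleukin-6 family, had 11.12, 10.51 and 10.99 on arrays 1, 2 and 3. The leukemia inhibitory factor receptor gene Lifr stood at 10.20 ± 0.37, the oncostatin M receptor gene Osmr at 9.71 ± 0.28 and the growth hormone receptor gene Ghr at 9.98 ± 0.15 (SD, n = 3 each). Cntfr had 6.49, 7.76 and 6.21, and Il6ra, the ligand-binding chain for interleukin-6, had 6.38, 6.42 and 6.42. Epor was called with 6.19 ± 0.31 but not without array 1 (limma, adjusted p = 0.0696). Il11ra1 had 5.61, 4.99 and 4.76 and was not called, nor were Il27ra (5.91 ± 0.16) and Csf3r, the receptor gene of neutrophil growth factor (5.97 ± 0.30).

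Ligands of the gp130 receptors were called in 2 of 6 cases, where 51.7% of all genes were. Ctf1, the cardiotrophin-1 gene, had 6.28, 7.25 and 7.16 and Clcf1 was flat with 6.24, 6.24 and 6.25. Those not called were Il6 (4.24, 3.56 and 2.91), Osm (3.57, 4.90 and 4.60), Lif (5.34, 4.74 and 4.17) and Il11 (5.44, 5.68 and 5.95). In these lists the receptor chains Il6st, Lifr and Osmr were thus above background while Il6, Lif and Osm were not called. Calls in the 2 lists were not tested against each other.

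Adaptors and kinases downstream of the receptor were called in 19 of 20 cases, where 51.7% of all genes were. The stricter threshold was passed by 7, against 16.2% of all genes. Pik3r1, the regulatory subunit of PI3 kinase, had the largest margin, with 9.08, 9.59 and 9.33 on arrays 1, 2 and 3. Irs1, an insulin receptor substrate that also serves the leptin receptor, was flat with 7.92, 8.06 and 7.91. The phosphatase SHP2, which links the receptor to the MAP kinase path, is encoded by Ptpn11, whose values of 8.19, 6.27 and 7.23 differed most of this list between arrays. Sh2b1, which enhances JAK2 activity, stood at 7.26 ± 0.22, and the AMP kinase gene Prkaa1 at 8.70 ± 0.37 (SD, n = 3 each). The gene not called was Pik3cb, with 6.21, 4.66 and 5.64. Irs4 had fewer than 4 probesets and was not tested.

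Genes that restrain or move the receptor were mostly called. For comparison, 51.7% of all genes were called and 16.2% passed the stricter threshold. Of 5 phosphatase and PIAS genes 4 were called, led by Ptpn1, whose product PTP1B dephosphorylates JAK2, with 8.45, 7.83 and 7.28 on arrays 1, 2 and 3. Ptpn2 stood at 7.41 ± 0.18 and Pias3, an inhibitor of STAT3, at 6.79 ± 0.31 (SD, n = 3 each). Ptpn6, a phosphatase of blood cells, stood at 5.95 ± 0.14 and lost its call without any 1 array, and Ptpre was not called. Of 8 trafficking and shedding genes 7 were called, and Leprotl1, Adam10 (8.61, 8.52 and 8.48), Adam17 and Mmp14 passed the stricter threshold. ADAM10 and ADAM17 are known to cut the human leptin receptor from the cell surface. The Bardet-Biedl genes Bbs1 and Bbs2 stood at 6.03 ± 0.26 and 6.09 ± 0.07, while Bbs4 (5.57 ± 0.44) was not called.

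Of 16 genes known as STAT3 targets in various cells, 14 were above background and 8 passed the stricter threshold. The shares among all genes were 51.7% and 16.2%. The transcription factor genes Fos, Myc, Bcl6 and Junb had means of 9.17, 8.97, 8.67 and 7.90. The survival gene Mcl1 had 9.69, 8.54 and 8.68 on arrays 1, 2 and 3, and Vegfa 9.07, 8.51 and 8.17. Deviations of the list's median gene were 0.35, -0.02 and -0.29 for arrays 1, 2 and 3, so the list was highest on array 1 and lowest on array 3. Socs3 was lowest on array 1 by the median of its 9 probesets and on array 3 by their mean. Stat3 itself deviated by 0.19, 0.06 and -0.25. The same order of arrays was seen in the perivascular stromal list (0.10, -0.05 and -0.14) and over all genes (0.03, 0.01 and -0.04). The endothelial list did not share it, and a link between Stat3 and its targets was not tested. Ccnd1 (5.78 ± 0.55) and Cebpb (5.88 ± 0.31) were not called (SD, n = 3 each).

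Genes of the hypothalamic leptin circuit, where the receptor acts on feeding, were called in 1 of 8 cases, against 51.7% of all genes. The stricter threshold was passed by 0 of them, against 16.2% of all genes (limma, likewise 0 with an unadjusted p below 0.05). The appetite genes Pomc (5.10 ± 0.08, SD, n = 3), Agrp (4.85, 5.29 and 4.76) and Npy (5.54, 5.26 and 4.94) were not called. Cartpt was the called gene, with 6.27, 6.64 and 6.24 on arrays 1, 2 and 3. Sim1 had the lowest value of the list, at 4.71 ± 0.12 (SD, n = 3).

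**Figure D5:**
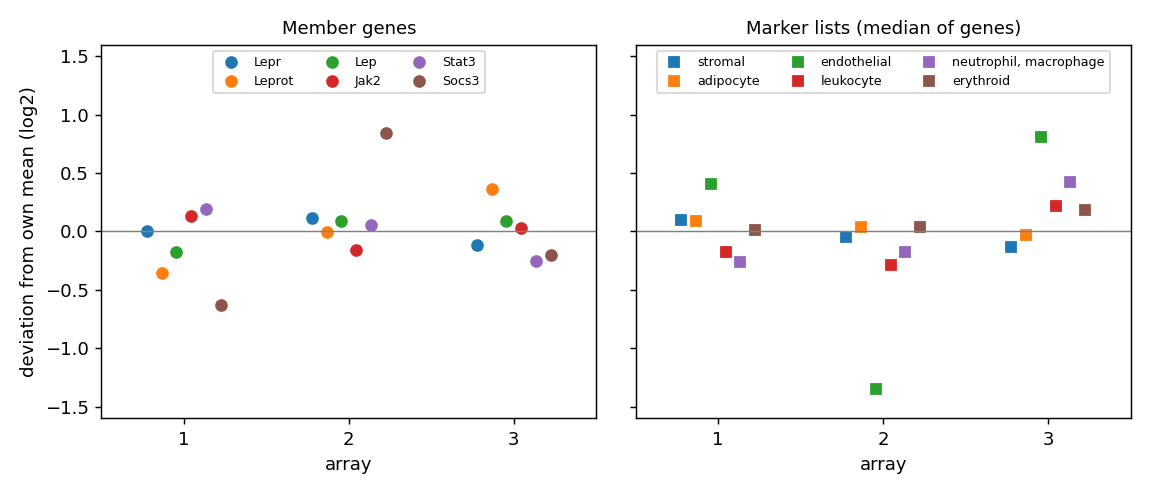
Deviation of each of the 6 genes (left) and of the median gene of each marker list (right) from its own mean over the 3 arrays, in log2 units, by array. Lepr stays within 0.12 of its mean, and the endothelial list is at -1.35 on array 2. Socs3 reaches 0.84 on array 2 by the median of its 9 probesets. Its range over the arrays was 1.47 with all 9 and 0.28 without the 2 variable probesets.

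Lepr resembled some other called genes in its pattern over the arrays. Its deviations from its own mean were 0.01, 0.11 and -0.12 on arrays 1, 2 and 3. Of 9741 other called genes, 459 lay within a Euclidean distance of 0.1 from these 3 deviations on the log2 scale. The 5 nearest were Nphs1, Tusc1, Rheb, Snx8 and Zfp13, at distances from 0.00375 to 0.0136. Likeness over 3 arrays of 1 group rests on 3 values per gene and is given as a description. The perivascular stromal markers as a list deviated by 0.10, -0.05 and -0.14, and their members differed in which array was highest. Cxcl12, the niche chemokine gene, had 11.77, 11.89 and 11.61, highest on array 2, whereas Kitl, the Kit ligand gene, had 10.46, 10.47 and 10.93, highest on array 3.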

How the data were processed

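Gene expression was measured on 3 Affymetrix arrays of sorted GFP-positive marrow cells. To make the deposited log2 values per probeset, the authors used RMA in Affymetrix Expression Console 1.1, per the submitters' processing notes. RMA corrects the background, normalises the arrays and summarises probes. Its settings and the build are not stated, and no exon assignment was used here. The arrays had medians of 5.20, 5.22 and 5.24 over 1256831 probesets, and 318760 had exactly 1 symbol after older symbols were updated with a RefSeq gene table of GRCm38.p6. The number of arrays limits the precision.

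A gene value was the median of its probesets, with at least 4 required. An intercept-only limma 3.58.1 model (R 4.3.3) was fitted to each value minus the threshold of the array, with a one-sided test and Benjamini-Hochberg adjustment over all genes or probesets, and an adjusted p below 0.05 was called. On simulated data with 18865 genes the test called 1 of 50 genes placed at the threshold, 28 of 50 placed 0.5 above it, 43 of 50 placed 1 above and 48 of 50 placed 2 above. The members and lists were chosen with earlier results of these data known. Named were the 6 genes, pathway genes with at least the largest and smallest margins of each list, a few markers, the 3 highest and 3 lowest Lepr probesets and the 5 genes with the nearest pattern.

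Alternatives were the mean over probesets, other background genes or percentiles, 2 probesets per gene, no zero values, centred arrays and leaving out each array.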

Additional observations from a re-analysis of the deposited data

How the results depend on the processing

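The counts depended most on the background. Against its 99th percentile 4284 genes, 38 of the pathway genes and 35 of the 119 probesets of the 6 genes were called, and against the other-tissue background 3049, 28 and 40, compared with 9746, 66 and 81 as reported. A higher threshold leaves fewer features above it by construction. Lepr, Leprot, Jak2 and Stat3 were called under all 10 alternatives, with Lepr margins from 4.33 to 6.30. Socs3 was called under all except the 99th percentile (margin 0.61) and the other-tissue background (margin 0.20). Lep was called under none, and its margin was 0.0469 against the 90th percentile of the background (limma, adjusted p = 0.525) in place of -0.40. Lepr probesets called ranged from 23 to 33 under the alternatives run. Without 1 of the arrays the counts were 8848 to 9551 genes, 60 to 64 pathway genes, 30 to 31 Lepr probesets and 71 to 76 probesets of the 6 genes. Leaving out zero values or centring the arrays changed no value, since none of the named probesets was at 0 and each array has its own threshold. No paired analysis was possible because the arrays form 1 group. No scanner intensities were used here, so signal over local background was not examined.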

Other observations

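Some probesets held exactly the same value on 2 of the 3 arrays. Among the 6 genes 5 of 119 probesets did (4.2%), against 4.33% of all 318760 probesets with 1 symbol. For Lep it was 3 of 5, which were equal on arrays 2 and 3 at 5.23 (probeset 4345396), 2.94 (4504462) and 2.71 (4504780). The equal Lep gene values on those arrays come from probeset 4345396. Equal values were found for 1 of 31 Jak2 probesets, 1 of 35 Stat3 probesets and 0 of 33 Lepr probesets.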
